A study of Mus musculus with 4 samples.

Results

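The YAP, TAZ, TEAD and Hippo regulator genes were examined in cultured mouse bone marrow mesenchymal stem cells, plastic-adherent marrow stroma with the capacity to become bone, cartilage or fat cells. The set comprised 10 genes: the coactivator genes Yap1 and Wwtr1 (which encodes TAZ), the DNA-binding partner genes Tead1, Tead2, Tead3 and Tead4, the kinase genes Lats1 and Lats2, and the regulator genes Amotl2 and Ajuba. They were found as the probe sets whose only gene symbol was 1 of these names, which gave 11 probe sets of 41345 on the array and 10 genes of 22180. The members were chosen by pathway and on the log2 values of these same arrays, in which Yap1 was lower without Snail1, so genotype differences of these genes are described and not tested. The groups were Snail1-KO cells given TGF-b1 for 2 h, untreated Snail1-KO cells, Snail1-WT cells given TGF-b1 for 2 h and untreated Snail1-WT cells. Each group had 1 Affymetrix array, and a difference between arrays is therefore not replicated. How Snail1 was removed, the strain and age of the mice, and whether cultures were separate are not stated in the labels.

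In the Hippo pathway, upstream kinases activate LATS1 and LATS2, which phosphorylate YAP and TAZ and so keep them out of the nucleus. Unphosphorylated YAP and TAZ enter the nucleus, bind TEAD factors and activate genes such as Ccn1 and Ccn2. YAP and TAZ are known to be active in spread cells on stiff substrates, mesenchymal stem cells among them, and this control acts largely on the proteins, which the arrays do not measure. Snail1, the product of Snai1, is a transcriptional repressor, and TGF-b1 is a cytokine that signals through SMAD proteins, which can share nuclear complexes with YAP and TAZ.

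Values are log2 levels made by the authors with RMA, and a difference of 1 is 2-fold. All 10 genes were among the 13308 genes (60% of those named) with the highest mean level, the least of which averaged 4.51. The 4 array medians ran from 4.58 to 4.63. To judge error, a noise SD for the difference of 2 arrays was taken at each gene's level from how far the TGF-b1 responses of the 2 genotypes disagreed among the 500 genes nearest in level. For the 10 genes it lay between 0.08 (Wwtr1) and 0.18 (Tead4). Whatever both arrays of a genotype share cancels out of it, so it leaves out any spread between the Snail1-KO and Snail1-WT cultures. The targeted gene Snai1 measured 5.34 in treated and 5.09 in untreated Snail1-KO cells, against 7.63 and 6.69 in treated and untreated Snail1-WT cells. Of 10 measured stromal markers all passed the filter on low values. Pdgfra, Pdgfrb, Col1a1 and Col1a2 were above 10 on every array, but Thy1 measured between 5.19 and 5.67. Nt5e (CD73), another surface marker of these cells, measured between 4.23 and 4.62 and did not pass. Of the 6 leukocyte and macrophage markers, Cd68 (6.05 to 6.23), Cd14 (5.53 to 6.59) and Csf1r (4.22 to 4.84) passed the filter, and Ptprc, Itgam and Adgre1 did not, with Ptprc between 3.15 and 3.78. Of 4 epithelial markers, Cdh1, Krt8 and Krt18 passed, the brightest being Krt8 (5.28 to 5.48), and Epcam (3.79 to 4.03) did not. Of 4 endothelial markers, Pecam1 and Cdh5 passed, and none was above 4.87. The log2 summed level of the 6 leukocyte and macrophage markers was 7.58 in treated and 7.87 in untreated Snail1-KO cells, against 7.48 and 7.69 in treated and untreated Snail1-WT cells. The part of other cell types in the results was not tested. In cultures measured as a whole, fewer cells of a type and less RNA per cell cannot be told apart.

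**Figure D1:**
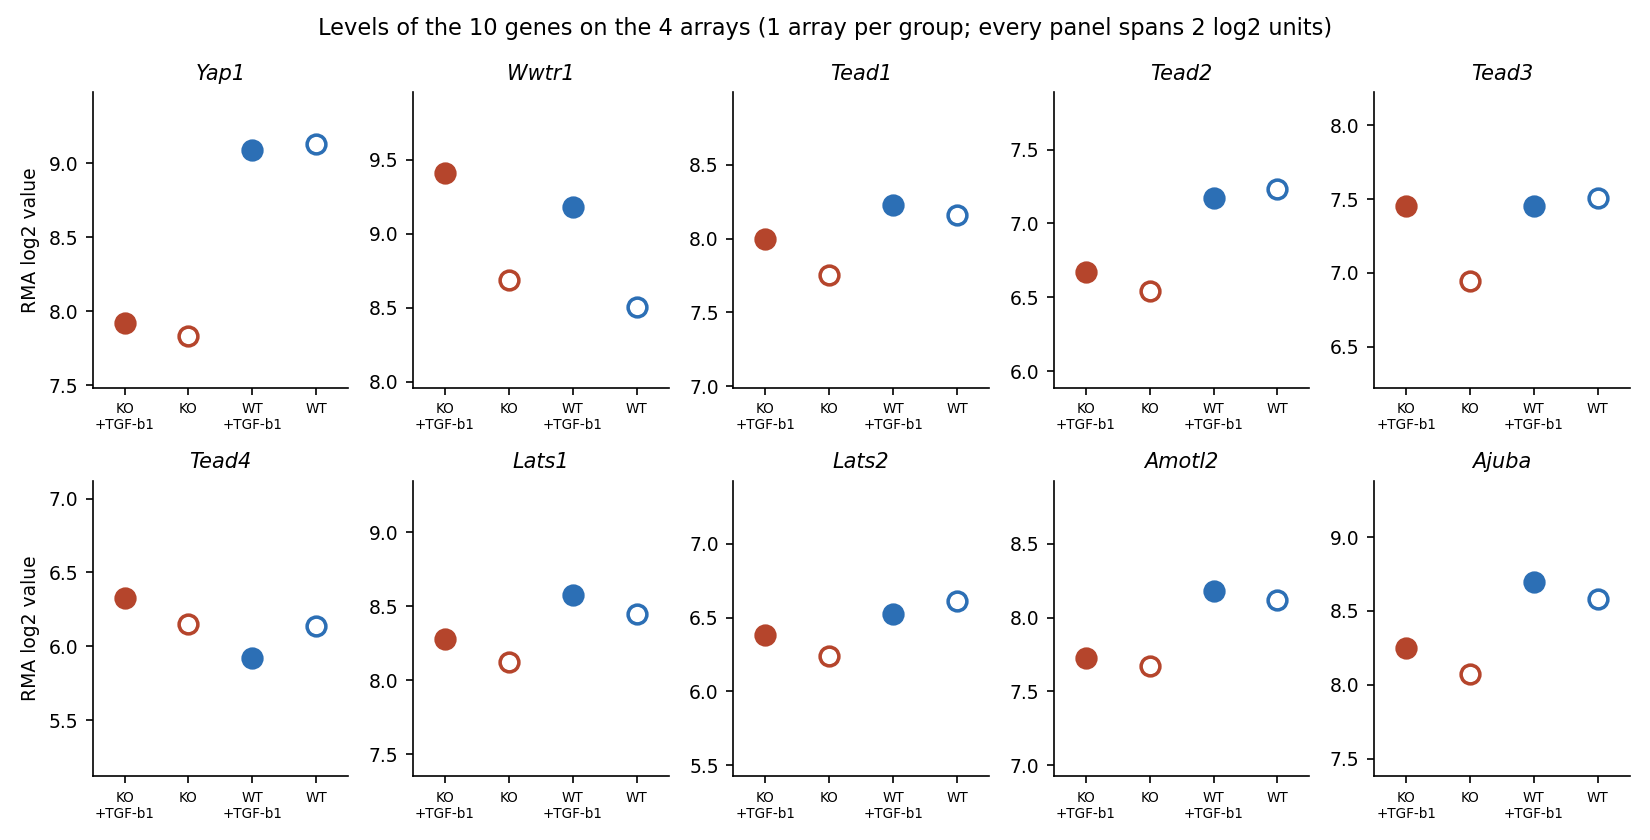
RMA log2 level (vertical axis) of each of the 10 genes on the 4 arrays, with Snail1-KO cells in red, Snail1-WT cells in blue, filled circles for 2 h of TGF-b1 and open circles for untreated cells. Each circle is 1 array and every panel spans 2 log2 units. Yap1 separates by genotype (7.92 and 7.83 against 9.09 and 9.13), and Wwtr1 separates by treatment within each genotype.

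Yap1, the coactivator through which the Hippo pathway chiefly acts, had the largest genotype difference of the 10 genes. It measured 7.92 in treated and 7.83 in untreated Snail1-KO cells, against 9.09 in treated and 9.13 in untreated Snail1-WT cells. Both Snail1-KO arrays thus lay below both Snail1-WT arrays, and within a genotype the arrays were no further apart than the noise SD of 0.10. Snail1-KO minus Snail1-WT was -1.17 with TGF-b1 and -1.30 without, so Yap1 stood at 0.445 and 0.405 times its Snail1-WT level. Of all 13308 genes, 0.95% with and 0.71% without TGF-b1 had a larger difference in size. TGF-b1 moved it by 0.09 in Snail1-KO cells and -0.04 in Snail1-WT cells. The other Yap1 probe set was dim, below 4.51 on all arrays, at 3.73 in treated and 3.79 in untreated Snail1-KO cells against 3.93 and 4.01 in treated and untreated Snail1-WT cells. Its differences, -0.20 with and -0.22 without TGF-b1, had the same sign. With the mean of both probe sets, Yap1 differed by -0.69 with and -0.76 without TGF-b1, still at least 1.5-fold lower in both pairs.

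The genes next to Yap1 on chromosome 9 were lower as well. Among the 20 kept genes nearest to it in the gene order of GRCm38.p6, 10 on each side, 10 were lower in Snail1-KO cells by 1.5-fold or more, with and without TGF-b1, and 0 were higher. Over all kept genes 1.65% were lower by this rule. The 10 were Casp12, Pdgfd, Dync2h1, Dcun1d5, Mmp3, Tmem123 and Birc2 on one side and Cfap300, Cep126 and Arhgap42 on the other. Mmp3 and Cep126 were below 4.51 on both Snail1-KO arrays and passed the filter through their Snail1-WT levels. With the upper 40% of genes kept, 8 of the 14 neighbours left were lower, and these 2 were not among them. Over all 20 neighbours the median difference was -0.74 with and -0.71 without TGF-b1, smaller in size than that of Yap1. Between Casp12 and Arhgap42, the outermost of the 10, lay 13 kept genes other than Yap1. The exceptions in this stretch were Mmp10 (-0.16 with and -0.45 without TGF-b1), Birc3 (-0.62 and -0.48) and the microRNA gene Mir1899 (0.03 and 0.02). Mmp10 and Mir1899 had levels under 5 on every array. The stretch was known from earlier results when it was chosen. For each of the other 9 genes, 0 or 1 of the 20 nearest kept genes was called by genotype in either direction. By the same rule 4.25% of all kept genes were called. Dkk3 near Tead1 was higher, and Fgf23 near Tead4 and Acpp near Amotl2 were lower. Fgf23 was below 4.51 on both Snail1-KO arrays and passed the filter through its Snail1-WT levels. The part of the neighbourhood in the Yap1 difference was not tested.

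**Figure D2:**
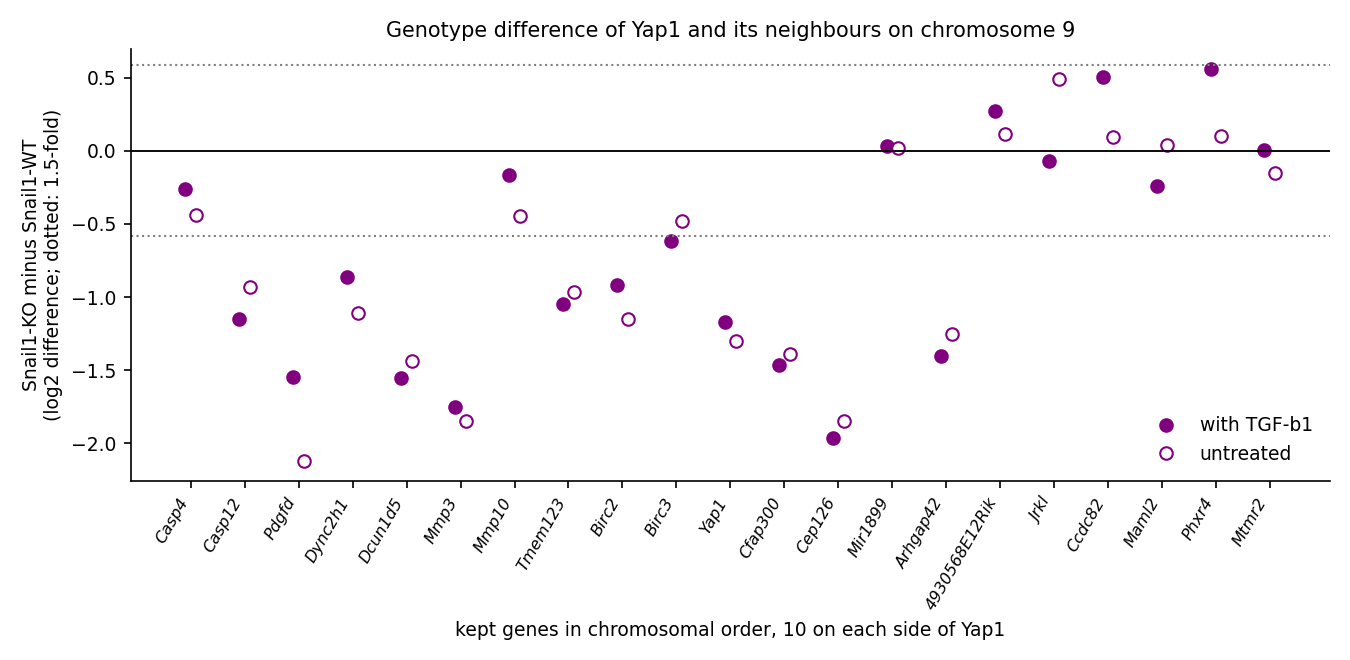
Snail1-KO minus Snail1-WT log2 difference (vertical axis) of Yap1 and the 10 kept genes on each side of it, in chromosomal order at equal spacing (horizontal axis). Filled circles are the arrays with TGF-b1, open circles the untreated ones, and dotted lines mark 1.5-fold. From Casp12 to Arhgap42, 10 of 13 neighbours lie below the lower line in both pairs, and the genes beyond Arhgap42 lie between the lines.

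The promoters of 8 of the 10 genes were matched in a RefSeq table for GRCm38.p6, in 12 windows of 300 bases that run from 250 bases before to 50 bases after a gene start. Tead1 and Tead4 had no window. Each window was searched on both strands for GGAATG (TEAD), for CAGGTG (an E-box form bound by Snail1) and for CAGAC (part of SMAD sites). The TEAD letters were found in windows of Yap1, Wwtr1, Tead3, Lats2, Amotl2 and Ajuba, in 8 of the 12 windows, against 14.7% of all 32851 windows of this length. Windows of a gene can overlap and then share a match. The E-box letters were found in 1 of the 12 windows, that of Lats2, against 20.2% of all windows, and the SMAD letters in 4, against 49.6%. A match is a run of letters, not a measured binding site. The windows of the coactivator genes, of Amotl2 and of Lats2 are shown with all matches in capitals, because they carry the TEAD letters in both coactivator genes, a regulator gene and a kinase gene, and the single E-box match. They lie at chr9:8004547-8004846 (Yap1, minus strand), chr3:57575827-57576126 (Wwtr1, minus strand), chr9:102717554-102717853 (Amotl2, plus strand) and chr14:57746074-57746373 (Lats2, minus strand), and each reads 5′ to 3′ along its gene.
Yap1: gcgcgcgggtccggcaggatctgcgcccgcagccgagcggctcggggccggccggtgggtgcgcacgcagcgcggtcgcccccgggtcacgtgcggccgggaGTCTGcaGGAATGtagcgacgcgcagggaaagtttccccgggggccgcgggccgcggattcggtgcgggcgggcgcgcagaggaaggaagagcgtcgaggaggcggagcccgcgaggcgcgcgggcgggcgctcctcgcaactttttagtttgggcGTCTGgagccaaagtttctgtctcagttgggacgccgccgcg
Wwtr1: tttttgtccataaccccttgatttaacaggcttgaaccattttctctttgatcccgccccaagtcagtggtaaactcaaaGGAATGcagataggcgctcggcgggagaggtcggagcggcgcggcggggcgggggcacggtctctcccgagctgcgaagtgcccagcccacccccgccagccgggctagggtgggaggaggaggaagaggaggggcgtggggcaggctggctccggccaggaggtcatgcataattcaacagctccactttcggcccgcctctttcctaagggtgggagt
Amotl2: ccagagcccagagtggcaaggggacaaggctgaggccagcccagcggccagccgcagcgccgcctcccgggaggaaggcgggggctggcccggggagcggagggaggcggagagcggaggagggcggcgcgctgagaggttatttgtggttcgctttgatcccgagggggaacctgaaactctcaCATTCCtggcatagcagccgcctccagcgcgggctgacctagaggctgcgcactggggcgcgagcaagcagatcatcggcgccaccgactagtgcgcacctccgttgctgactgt
Lats2: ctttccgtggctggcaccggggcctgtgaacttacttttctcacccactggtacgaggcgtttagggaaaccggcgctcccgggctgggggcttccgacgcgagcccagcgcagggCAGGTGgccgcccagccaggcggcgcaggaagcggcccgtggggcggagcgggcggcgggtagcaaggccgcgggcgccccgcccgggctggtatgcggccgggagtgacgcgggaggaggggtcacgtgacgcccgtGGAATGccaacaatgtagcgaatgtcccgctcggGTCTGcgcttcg
Counted from the gene start, the TEAD match begins at -141 in Yap1, close to a SMAD match at -148. It begins at -170 in this window of Wwtr1, at -65 in Amotl2 and at 5 in Lats2, whose E-box match begins at -134.

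Wwtr1, which encodes the YAP paralog TAZ, was the 1 gene of the 10 with a response to TGF-b1 of at least 1.5-fold in both genotypes. It measured 9.41 in treated and 8.69 in untreated Snail1-KO cells, and 9.18 in treated and 8.51 in untreated Snail1-WT cells. Both treated arrays lay above both untreated arrays. The response was 0.72 in Snail1-KO cells and 0.67 in Snail1-WT cells, at a noise SD of 0.08, or 1.65-fold and 1.60-fold. Over all kept genes 1.83% were higher by this rule, and 3.01% in Snail1-KO and 3.12% in Snail1-WT cells had a larger response in size. Unlike Yap1, Wwtr1 was slightly higher in Snail1-KO cells, by 0.23 with and 0.18 without TGF-b1, differences that 42.3% and 49.8% of kept genes exceeded. The responses differed by 0.05, less than the noise SD of that difference, 0.11.

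**Figure D3:**
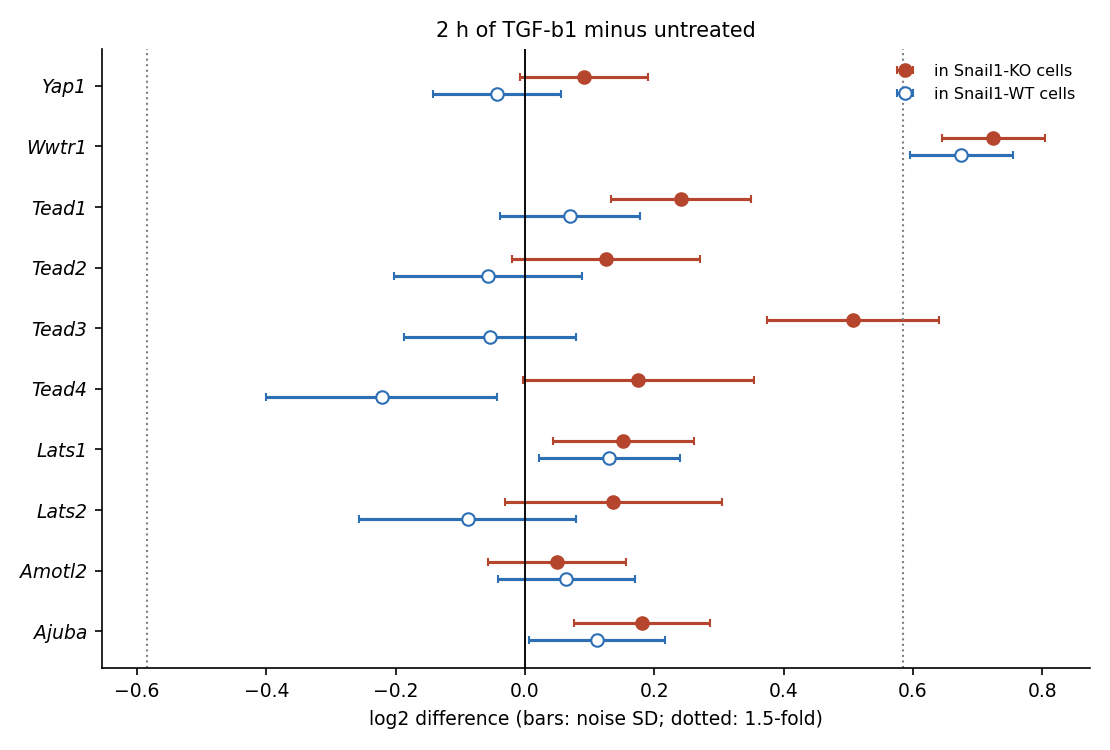
Response to 2 h of TGF-b1 (treated minus untreated, log2, horizontal axis) of the 10 genes, in Snail1-KO cells (red, filled) and Snail1-WT cells (blue, open). Bars are 1 noise SD and dotted lines mark 1.5-fold. Wwtr1 lies past the line in both genotypes (0.72 and 0.67), and Tead3 has the next largest response in Snail1-KO cells (0.51).

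The TEAD genes, whose products bring YAP and TAZ to DNA, went different ways. Tead2 measured 6.67 in treated and 6.55 in untreated Snail1-KO cells, against 7.18 and 7.23 in treated and untreated Snail1-WT cells. Its difference was -0.50 with TGF-b1 and -0.69 without, at a noise SD of 0.15, so it was past 1.5-fold in the untreated pair and not with TGF-b1. Without TGF-b1, 3.13% of kept genes lay past this threshold on the lower side, whatever their difference with it. Tead1 had a difference of the same sign, at 8.00 in treated and 7.76 in untreated Snail1-KO cells against 8.23 and 8.16 in treated and untreated Snail1-WT cells (-0.23 with and -0.40 without TGF-b1, noise SD 0.11).

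Tead3 measured 7.45 in treated and 6.94 in untreated Snail1-KO cells, and 7.45 in treated and 7.50 in untreated Snail1-WT cells. The untreated Snail1-KO array thus stood apart from the other 3. The genotype difference was -0.56 without TGF-b1 and 0.00 with it, and the response was 0.51 in Snail1-KO cells and -0.05 in Snail1-WT cells, at a noise SD of 0.13. Tead4 measured 6.33 in treated and 6.15 in untreated Snail1-KO cells, and 5.92 in treated and 6.14 in untreated Snail1-WT cells. Its genotype difference was 0.41 with TGF-b1 and 0.01 without, at a noise SD of 0.18.

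Of the kinase and regulator genes that act on YAP and TAZ, 0 of 4 were past 1.5-fold in either pair. In the untreated pair 3.13% of kept genes lay past it on the lower side, so this count does not set the 4 apart. Each of the 4 had a negative difference in both pairs, as did 36.4% of kept genes. Ajuba, a LIM-domain protein gene whose product binds and restrains LATS kinases, measured 8.25 in treated and 8.07 in untreated Snail1-KO cells, against 8.69 in treated and 8.58 in untreated Snail1-WT cells. Its difference was -0.44 with and -0.51 without TGF-b1, at a noise SD of 0.11. Amotl2, an angiomotin family gene whose product binds YAP and is itself a YAP target, measured 7.72 and 7.67 in treated and untreated Snail1-KO cells, against 8.18 and 8.12 in treated and untreated Snail1-WT cells. It differed by -0.46 with and -0.44 without TGF-b1, at a noise SD of 0.11, and was the least responsive to TGF-b1 in Snail1-KO cells, at 0.05.

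The kinase gene Lats1 measured 8.28 in treated and 8.13 in untreated Snail1-KO cells, against 8.58 in treated and 8.45 in untreated Snail1-WT cells. The difference was -0.30 with and -0.32 without TGF-b1, at a noise SD of 0.11. Lats2, the other LATS kinase gene and also a YAP target, measured 6.38 and 6.24 in treated and untreated Snail1-KO cells, against 6.52 and 6.61 in treated and untreated Snail1-WT cells. Its difference of -0.14 with TGF-b1 was within the noise SD of 0.17, and that of -0.37 without was beyond it. For these genotype differences, as for those above, the noise SD leaves out any spread between the Snail1-KO and Snail1-WT cultures.

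**Figure D4:**
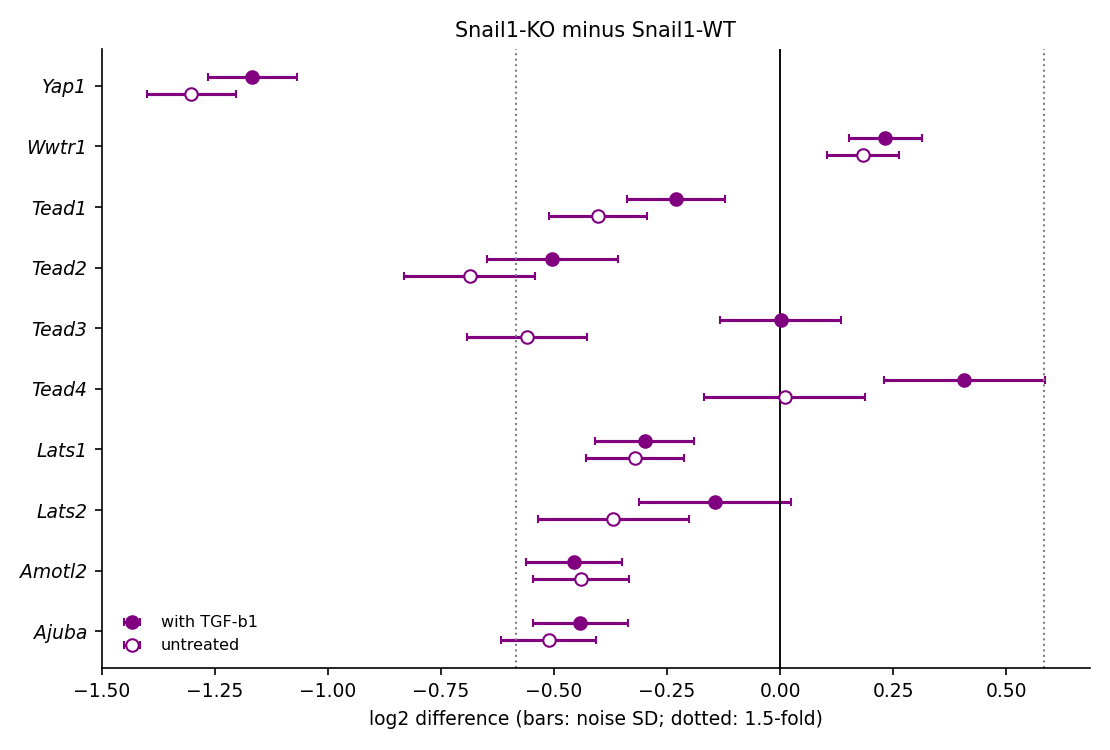
Snail1-KO minus Snail1-WT difference (log2, horizontal axis) of the 10 genes, with TGF-b1 (filled) and untreated (open). Bars are 1 noise SD, which leaves out any spread between the Snail1-KO and Snail1-WT cultures, and dotted lines mark 1.5-fold. Yap1 stands past the lower line in both pairs (-1.17 and -1.30), 6 other genes lie below 0 in both, and Wwtr1 and Tead4 lie above 0 in both.

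Across the 10 genes, 1 (Yap1) was lower by 1.5-fold or more in both pairs and 0 were higher, against 1.65% and 2.60% of all kept genes. By sign alone, 7 were lower in both pairs (36.4% of kept genes) and 2 were higher (36% of kept genes). Past 2 noise SDs in both pairs, a rule added after the values were seen, 6 were lower (Yap1, Tead1, Tead2, Lats1, Amotl2 and Ajuba) and 1 was higher (Wwtr1), against 8.73% and 10.5% of kept genes. The median difference of the 10 was -0.26 with and -0.42 without TGF-b1, and over all kept genes it was 0.00 in both pairs. Since the genes were chosen with genotype results known, nothing is read from these counts. After TGF-b1, all 10 were higher in Snail1-KO cells, where 46.2% of kept genes were higher, and 5 in Snail1-WT cells, where 45.2% were. Apart from Wwtr1 and, in Snail1-KO cells, Tead3, these responses were at most 0.24 in size.

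A genotype dependence of the TGF-b1 response was described by the response in Snail1-KO minus that in Snail1-WT cells. It was above 0 for 9 of the 10 genes, against 53.6% of kept genes. For Yap1, Wwtr1, Tead2, Lats1, Lats2 and Ajuba it was within its own noise SD, and for Tead1 barely past it (0.17, noise SD 0.15). The largest were those of Tead3 (0.56, noise SD 0.19) and Tead4 (0.40, noise SD 0.25), and Amotl2 was the exception at -0.01. None reached 1.5-fold, which 3.58% of kept genes did, but with each array centred on its median Tead3 did, at 0.61. With 1 array per group this difference has no replicate, and the untreated Snail1-KO array enters both the response and the genotype difference.

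Genes known as targets of YAP, TAZ and TEAD were taken from a list of 20, of which 19 were measured and 18 passed the filter. In Snail1-KO cells 2 of the 18 were at least 1.5-fold lower in both pairs (against 1.65% of kept genes) and 0 were higher (against 2.60%). They were Igfbp3, an IGF binding protein gene, at -1.92 with and -2.23 without TGF-b1, and the matrix protein gene Ccdc80, at -0.62 and -0.59. Ccdc80 was close to the threshold and not called under 4 of the alternatives. Its dimmer probe set differed by -0.49 with and -0.87 without TGF-b1, past 1.5-fold in the untreated pair alone. The median over the 19 was -0.11 with and -0.39 without TGF-b1. Ccn1 differed by -0.29 with and -0.93 without TGF-b1. Ccn2, by its brighter probe set, differed by -0.08 and -1.06, and the target gene Ankrd1 by 0.14 and -0.29. The receptor tyrosine kinase gene Axl differed by -0.39 and -0.45, and the membrane protein gene Crim1 by -0.56 and -0.56. The guanine nucleotide exchange factor gene Dock5 went the other way, at 0.56 and 0.65, as did Myof, Asap1 and Tgfb2 by smaller differences. By sign alone, 13 of the 19 were lower in both pairs and 4 were higher, against 36.4% and 36% of kept genes.

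After TGF-b1, 4 of the 18 targets were at least 1.5-fold higher in both genotypes, against 1.83% of kept genes, and 0 were lower, against 0.691%. The matricellular gene Ccn2 measured 10.64 in treated and 6.82 in untreated Snail1-KO cells, and 10.72 in treated and 7.88 in untreated Snail1-WT cells. Its dimmer probe set also was higher after TGF-b1, by 0.35 in Snail1-KO and 1.06 in Snail1-WT cells, but differed between untreated genotypes by 0.77, opposite in sign to the brighter set (-1.06). Ccn1, of the same family, was higher by 1.44 in Snail1-KO and 0.80 in Snail1-WT cells. The forkhead factor gene Foxf2 was higher by 1.38 and 1.09, and the kinase gene Nuak2 by 0.84 and 0.74. Ankrd1, another widely used YAP reporter gene, was higher by 0.47 in Snail1-KO and 0.04 in Snail1-WT cells. Ccn1 and Ccn2 are also known TGF-b targets, and the part of YAP and TAZ in these values was not tested.

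**Figure D5:**
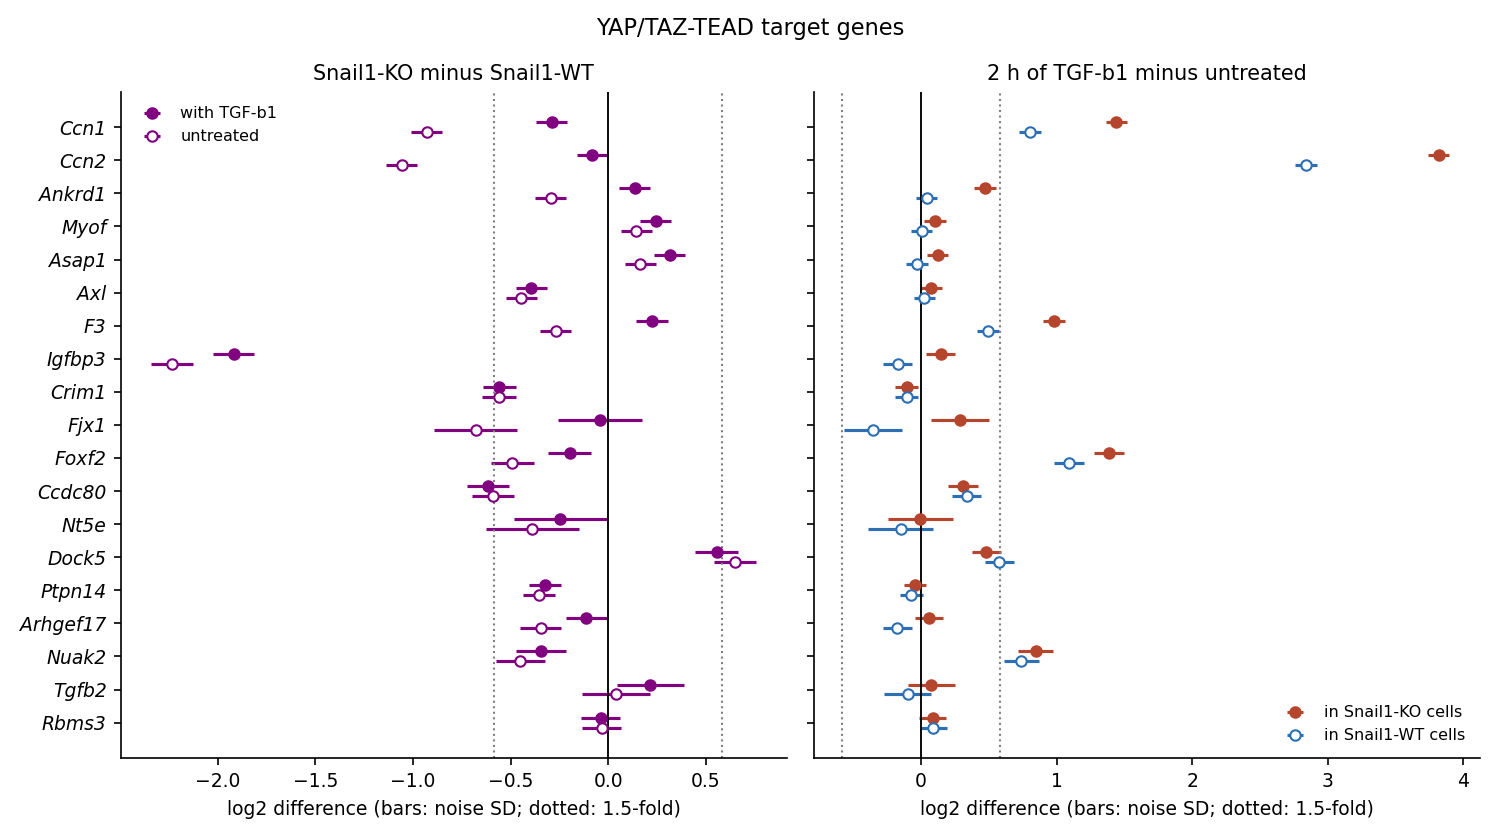
Log2 differences (horizontal axes) of the 19 measured YAP/TAZ-TEAD target genes: Snail1-KO minus Snail1-WT on the left (filled with TGF-b1, open untreated), and treated minus untreated on the right (red in Snail1-KO, blue in Snail1-WT cells). Bars are 1 noise SD and dotted lines mark 1.5-fold. On the left the bars leave out any spread between the Snail1-KO and Snail1-WT cultures. Igfbp3 has the largest genotype difference (-1.92 and -2.23) and Ccn2 the largest response (3.82 and 2.84).

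Of 46 other Hippo pathway genes, upstream regulators and partners of YAP and TAZ, 39 were measured and 38 passed the filter. In Snail1-KO cells 2 were at least 1.5-fold lower in both pairs and 1 was higher, again against 1.65% and 2.60% of kept genes. Fat4, an atypical cadherin gene, measured 7.06 in treated and 6.94 in untreated Snail1-KO cells, against 7.87 and 7.87 in treated and untreated Snail1-WT cells, a difference of -0.81 and -0.93. Its dimmer probe set gave -0.25 with and -0.43 without TGF-b1, and with the mean of its probe sets Fat4 was not called. Wwc1, encoding the LATS activator KIBRA, differed by -0.71 and -0.85, at a noise SD of 0.21. Stk38l, a kinase gene of the LATS-related NDR family, was higher by 0.99 with and 0.72 without TGF-b1.

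The median over the 39 genes was -0.12 with and -0.17 without TGF-b1. Wwc2, a paralog of Wwc1, was the 1 gene of this list past 1.5-fold after TGF-b1 in both genotypes, 1 of 38 against 1.83% of kept genes. It measured 9.30 in treated and 8.44 in untreated Snail1-KO cells, and 9.42 in treated and 8.56 in untreated Snail1-WT cells, so it was higher by 0.86 and 0.87. Ptpn14, which is on both lists, differed between genotypes by -0.32 and -0.35.

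The kept genes whose levels over the 4 arrays ran closest to those of Yap1, each gene centred on its own mean, were Dlk1, Npr3 and Pcsk6, at Euclidean distances of 0.05, 0.09 and 0.09 log2 units. Dlk1 measured 6.31 in treated and 6.28 in untreated Snail1-KO cells, against 7.54 and 7.57 in treated and untreated Snail1-WT cells. Closest to Wwtr1 were Csdc2, Lemd3 and 4931406H21Rik, at 0.05, 0.07 and 0.08. Lemd3, which encodes an inner nuclear membrane protein that binds SMADs, was higher after TGF-b1 by 0.72 in both Snail1-KO and Snail1-WT cells. With 4 arrays such likeness is a description.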

How the data were processed

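RNA was measured on 4 Affymetrix arrays, 1 per group, after labelling with the WT PLUS kit, per the labels' protocols. Per the submitters' processing notes, the log2 values that the authors deposited come from RMA and R 3.1.1. RMA subtracts background, gives all arrays the same distribution and merges probes, which would hide a shift shared by most genes. The genome build was not stated in the labels. Precision is limited by the number of arrays, which have no read depth.

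Groups came from the sample titles. The platform annotation gave 23521 of the 41345 probe sets 1 symbol and 1814 several, leaving 16010 unnamed here. Each gene was represented by its probe set of highest mean, and the upper 60% of genes by mean were kept. Differences of log2 values were computed, treated minus untreated and Snail1-KO minus Snail1-WT. A gene was called where it was at least 1.5-fold apart, in the same direction, in both pairs, which have no array in common. No p-value is given, since no group has a replicate. The additive fit of genotype and treatment, which has 1 residual degree of freedom, was not run. The noise SD is the scaled median absolute deviation of the response difference over 500 genes, divided by the square root of 2, and was tested on simulated data. Of 13308 kept genes, 13236 were placed in RefSeq gene order. Named genes were all probe sets of the 10 genes, the called genes of the other Hippo and target lists with Ccn1, Ccn2 and Ankrd1, the neighbours of Yap1 between the outermost called ones, and the 3 closest profiles. Axl, Crim1, Dock5, Myof, Asap1, Tgfb2 and Ptpn14, the markers shown, and Dkk3, Fgf23 and Acpp were named after their values were seen. Members and lists were chosen with earlier results of these data known. Alternatives were median centring, cyclic loess (limma 3.58.1, R 4.3.3), the mean over a gene's probe sets, keeping 40% or all of the genes and calling at 2-fold. Scripts ran in Python 3.11.15 (numpy 2.4.6, pandas 2.3.3, matplotlib 3.10.9).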

Additional observations from a re-analysis of the deposited data

How the results depend on the processing

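With 1 array per group no array could be left out. In all settings Yap1 was lower in Snail1-KO cells by 1.5-fold or more in both pairs, and by 2-fold or more except with the mean of its probe sets (-0.69 with and -0.76 without TGF-b1). At a 2-fold threshold, 0 of the 10 genes were called by TGF-b1 in both genotypes, so Wwtr1 was lost, as were the other Hippo pathway genes (0 by genotype and 0 by TGF-b1). At that threshold 1 target gene was called by genotype (Igfbp3), 2 by TGF-b1 (Ccn2 and Foxf2), and 6 neighbours of Yap1 were lower, against 1.03% of kept genes called by genotype and 0.661% by TGF-b1 in either direction. With cyclic loess, and likewise with probe sets averaged, 1 target gene was called by genotype, Ccdc80 being lost. With median centring Ccdc80 was lost too and Dock5 was called higher. Among the other Hippo pathway genes, Fat4 was lost with probe sets averaged, and Wwc1 was filtered out with the upper 40% of genes kept. With median centring and cyclic loess, 100 of 100 recomputed differences of the 10 genes moved by less than the noise SD. Averaging probe sets could move those of Yap1 alone, the other genes having 1 probe set each, and moved 2 of its 5 by more. The number of the 10 genes with the higher response in Snail1-KO cells was 8 with cyclic loess and 10 with median centring, where the response difference of Tead3 passed 1.5-fold (0.61). RMA signal near background limits the values of the dim Yap1 and Ccn2 probe sets.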

Other observations

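Among the 14-3-3 genes, whose products hold phosphorylated YAP and TAZ in the cytoplasm, 2 probe sets of Ywhah disagreed in sign. The brighter was higher after TGF-b1 by 0.48 in Snail1-KO and 0.26 in Snail1-WT cells, and the dimmer differed by -0.10 and -0.42. The brightest probe set of Ywhaz stayed within 0.14 in size in all 4 comparisons. After TGF-b1 its probe set next in level changed by -0.18 in Snail1-KO and -0.34 in Snail1-WT cells. Its dimmest changed by -0.21 and -0.06. The cofactor gene Vgll3, whose product binds TEAD factors, measured 9.76 in treated and 9.99 in untreated Snail1-KO cells, against 10.22 and 10.41 in treated and untreated Snail1-WT cells. Its differences of -0.45 with and -0.42 without TGF-b1 were of a size with those of Amotl2. The angiomotin gene Amot differed by -0.52 with and -0.62 without TGF-b1, past 1.5-fold in the untreated pair alone. These genes were picked after their values were seen.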
